A study of Homo sapiens with 8 samples.

Results

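Axon guidance ligands and receptors were followed through the RNA-seq data of 2 Ewing sarcoma cell lines. The members were taken by gene symbol as the semaphorins of classes 3 to 7, the plexins and neuropilins, the Eph receptors and ephrins, the SLIT ligands and ROBO receptors, and the netrins with their receptors DCC and UNC5A to UNC5D. This gave 69 genes of 60332 in the table, each on 1 row. Growth cones steer by these proteins, which attract or repel a moving cell edge by way of small GTPases and actin. Semaphorins act through plexins, with neuropilins as co-receptors for most secreted class 3 members. Ephrins are held on the cell surface and signal through Eph receptor tyrosine kinases on a neighbouring cell, SLIT proteins signal through ROBO receptors, and netrin-1 attracts through DCC and repels through UNC5 proteins. The same proteins act on adhesion, vessel growth and migration outside the nervous system, and the study that made the data asked whether loss of LOXHD1 alters the cytoskeleton and the movement of Ewing sarcoma cells.

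The samples were RD-ES and SK-N-MC cells, both established lines of Ewing sarcoma, a tumour of bone and soft tissue driven by the EWSR1::FLI1 fusion. Enhancer knockdown cells (eKD2) were infected with lentiviral dCas9-KRAB, a Cas9 that binds without cutting and carries a repressor domain, directed to the GGAA repeat near LOXHD1. The labels describe the control cells as infected with an empty form of this virus, the sample titles read cas9, and the study calls them parental. It is therefore not settled here whether the controls carried dCas9-KRAB. There were 4 groups of 2 libraries, and per the labels the infected cells received a multiplicity of infection of 10, 3 days of puromycin at 1 µg/ml and at most 5 passages. Selected pools were used rather than single clones, and 1 guide stands for the knockdown.

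The values are FPKM, read numbers scaled to transcript length and library size, so levels can be set side by side between genes. Estimated depth ran from 7.52 M reads in RD-ES eKD2 replicate 1 to 30.1 M in SK-N-MC control replicate 1, at which 1 read on a transcript of 3 kb is worth 0.044 and 0.011 FPKM. LOXHD1 stood at 21.2 and 21.4 FPKM in RD-ES control against 1.02 and 1.04 in eKD2, and at 159 and 169 FPKM in SK-N-MC control against 11 and 11.95 in eKD2. All 10 Ewing sarcoma markers reached 10 FPKM in some library, although NR0B1, a target of the fusion, was only at 2.38 to 3.84 FPKM in RD-ES. The 5 fibroblast markers summed to 10.0 to 14.4 FPKM in RD-ES and to 302 to 332 FPKM in SK-N-MC, where COL1A1, COL1A2, DCN and LUM made up the sum and PDGFRA stayed at or under 0.415 FPKM. PTPRC, a leukocyte gene, was at 19.2 to 22.6 FPKM in SK-N-MC, while CD3E was at 0 and LYZ at or under 0.271 FPKM in all 8 libraries. The part of these markers in the differences between the lines was not tested. RD-ES eKD2 replicate 1 stood apart in the epithelial genes CDH1 (3.50 FPKM, at most 0.168 in the other libraries) and KRT8 (8.24 FPKM, at most 2.13 elsewhere). The RD-ES differences of members with an unadjusted p under 0.05 there are therefore also given without it, as are some differences of effects. Other RD-ES differences, such as those of SLIT2, NTN3, PLXNA3 and of genes outside the members, are given with all libraries only. No label says that replicates came from separate cultures, although the study calls them biological duplicates, so p-values measure the spread between these libraries.

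Most of the guidance system was present, with ligands and receptors of every family detected. Of the 69 members, 46 averaged 1 FPKM or more across all 8 libraries and were tested, and 22 had a mean of at least 10 FPKM. The filter left in SEMA6B, a class 6 semaphorin, with a mean of 1.05 FPKM, and left out UNC5A, a repulsive netrin receptor, with a mean of 0.851 FPKM. The 23 members below the filter reached at most 1.90 FPKM in any library (SEMA3A, in RD-ES eKD2 replicate 1). They included 5 of the 7 class 3 semaphorins, 4 of the 9 EphA receptors, 4 of the 9 plexins and 2 of the 3 SLIT ligands, and EPHA8, PLXNA2 and ROBO4 were listed at 0 in all 8 libraries. Genes with little signal in a pool may be low in every cell or on in few of them, and fewer cells of a type cannot be told apart from less RNA per cell.

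**Figure D1:**
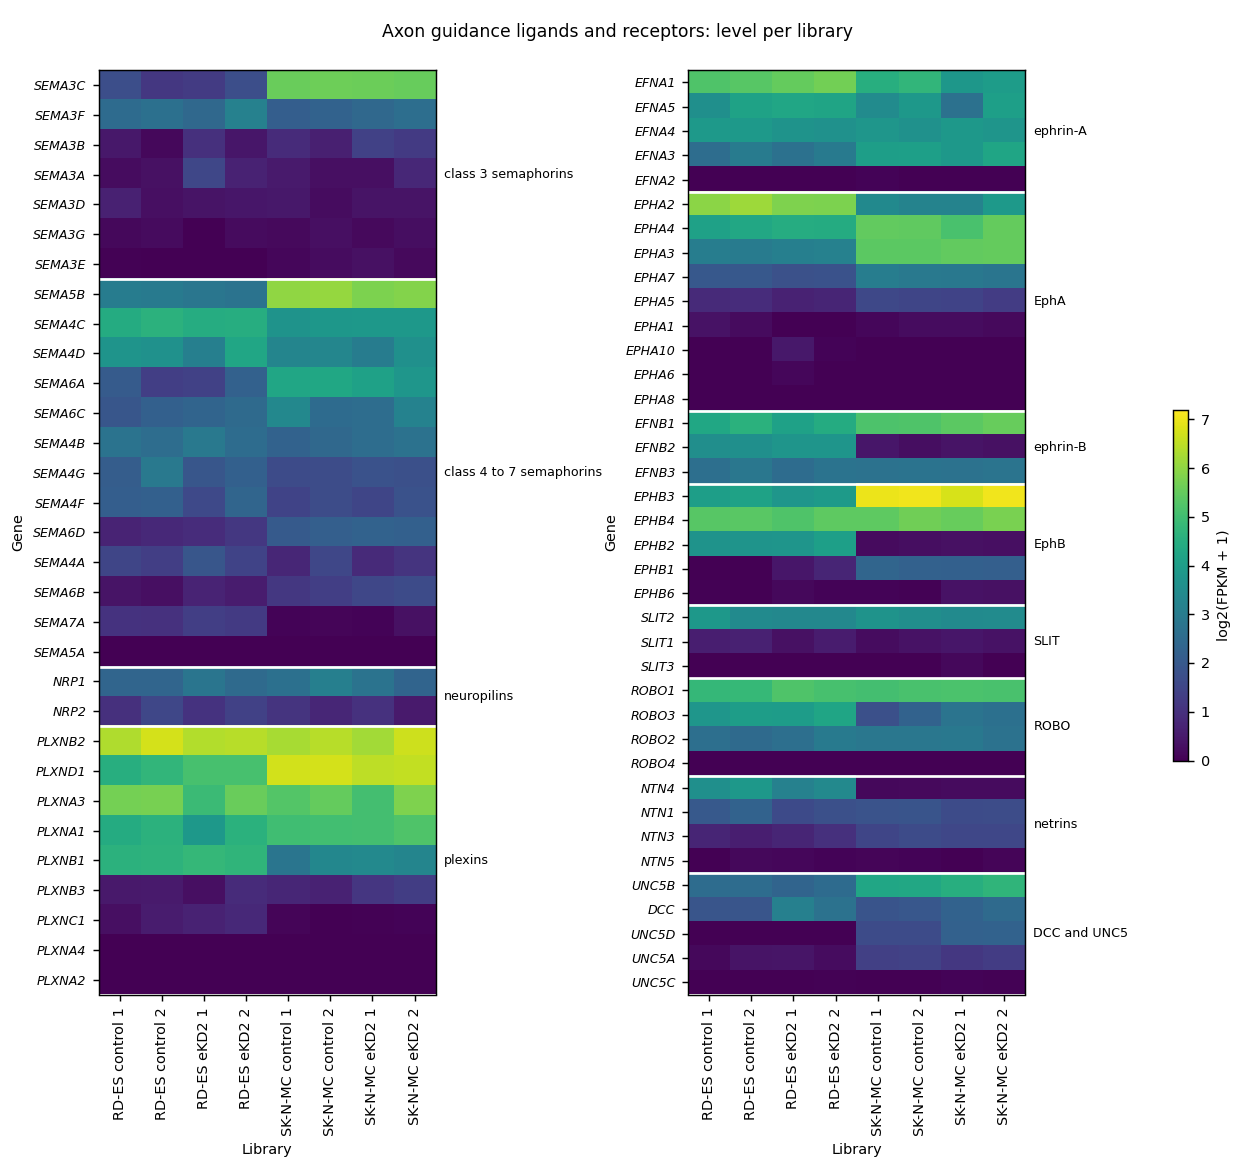
Level of all 69 members in each of the 8 libraries as log2(FPKM + 1), with rows grouped by family and ordered by mean level within it. The dark rows are members at or near 0, and rows such as SEMA3C, EPHB2, EFNB2 and NTN4 change colour between the 4 RD-ES columns and the 4 SK-N-MC columns.

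Receptors headed the ranking. PLXNB2, a receptor for class 4 semaphorins, had the highest mean level (86.2 FPKM) and ran from 73.1 to 106 FPKM over the 8 libraries, with overlapping values in both lines. EPHB3, a receptor for ephrin-B ligands, followed at 69.0 FPKM and PLXND1, a receptor of SEMA3E, next at 62.9 FPKM. Below them came PLXNA3 (43.3 FPKM), EPHB4 (43.2), EPHA2 (34.8), SEMA5B (33.3), ROBO1 (32.4), EFNA1 (30.6), EPHA4 (30.2), EFNB1 (29.5) and PLXNA1 (26.4). Only 3 of these 12, SEMA5B, EFNA1 and EFNB1, are ligands. Neighbours in this order were often not separated, since EPHB4 ranged from 36.0 to 52.5 FPKM and PLXNA3 from 29.3 to 54.6. Each line had its own order, and PLXNB2, EPHA2, PLXNA3 and EFNA1 led in RD-ES whereas EPHB3, PLXND1, PLXNB2 and SEMA5B led in SK-N-MC. The neuropilins were modest, with NRP1 between 4.03 and 7.67 FPKM and NRP2 between 0.444 and 1.89 FPKM. SEMA3F, a secreted ligand of NRP2 and the leading class 3 semaphorin of RD-ES, ran from 3.43 to 7.97 FPKM over all libraries. Of the other secreted ligands, SLIT2 (9.18 to 13.4 FPKM) was at like levels in both lines, and its receptor ROBO1 was at 26.8 to 36.2 FPKM.

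Many guidance genes differed in level between the lines, as did many genes of the whole table. In control cells 18 of the 46 members were higher in SK-N-MC and 9 were lower at an adjusted p under 0.05 (limma, Benjamini-Hochberg over 15175 genes). That is 39.1% and 19.6% of the members, where 31.4% and 26.4% of all genes tested were called in these directions. In the eKD2 libraries, which share no library with the controls, the counts were again 18 higher and 9 lower, against a background of 28.2% and 28.1%. A total of 25 members were called in both comparisons, all 25 in the same direction. Of all 15175 genes, 8777 were called in the control libraries and 8545 in the eKD2 libraries. How many of all genes were called in both, and in which direction, is not given here. The same lines and the same fit served both comparisons, so this agreement is not independent support for a difference of the members. SEMA4G and ROBO1 were called in the control libraries alone and DCC and PLXNA1 in the eKD2 libraries alone. A filter on the mean over both lines favours a difference between lines in members that passed it through 1 line. There were 10 members with a line mean under 1 FPKM, of which 9 were called in the control libraries and NRP2 was not (adjusted p = 0.374, limma). How many of all such genes were called is not given here, so the 9 are not read as a result about the members. The 10 were SEMA6D, SEMA6B, UNC5D, EPHA5, EPHB2, EPHB1, EFNB2, NTN4, NTN3 and NRP2, and their p-values between lines add no support for a difference. Of the 36 others 12 were higher and 6 lower in SK-N-MC. These are 33.3% and 16.7% of the 36, beside 31.4% and 25.5% of all 13071 genes with a mean of 1 FPKM or more in both lines.

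Receptors and ligands of the ephrin-B system were divided between the lines. EPHB2 was at 12.1 and 12.2 FPKM in RD-ES control and at 0.154 and 0.204 FPKM in SK-N-MC control, and EPHB3 was at 15.3 and 16.9 FPKM in RD-ES control and at 125 and 130.4 FPKM in SK-N-MC control. The values of the lines lay far apart for both receptors, in opposite directions, a 67.9-fold higher mean in RD-ES for EPHB2 and a 7.96-fold higher mean in SK-N-MC for EPHB3. On the log2(FPKM + 1) scale the differences were -3.48 (SE 0.140, adjusted p = 1.7e-05) and 2.92 (SE 0.114, adjusted p = 1.6e-05, limma). EPHB1 was listed at 0 in both RD-ES control libraries and was at 3.67 and 4.09 FPKM in SK-N-MC control (adjusted p = 0.000143, limma). EPHB4, the receptor through which ephrin-B2 acts in vessels, did not differ past the threshold, with a log2 difference of 0.17 (95% interval -0.13 to 0.47). Among the ligands, EFNB2 was at 10.9 and 10.96 FPKM in RD-ES control and at 0.349 and 0.194 FPKM in SK-N-MC control, a 40.2-fold difference of means (log2 difference -3.23, SE 0.122, adjusted p = 1.4e-05, limma). EFNB1 went the other way, at 18.4 and 23.0 FPKM in RD-ES control against 35.5 and 36.5 FPKM (log2 difference 0.78, adjusted p = 0.00500, limma). EFNB3 was at 4.88 to 6.19 FPKM over all 8 libraries. EPHB1, EPHB2 and EFNB2 passed the filter through 1 line, so their p-values add no support for a difference.

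The promoters of EFNB2, EPHB2 and EPHB3 are shown because these 3 had the largest differences of this system between control cells on the log2(FPKM + 1) scale. EPHB1, listed at 0 in RD-ES control, had a difference of 2.285 on this scale. Under the alternatives it reached 5.313, above EPHB3 at up to 2.986, so the choice of these 3 depends on the setting. Each is the RefSeq window of GRCh38.p14 from 250 bases before to 50 bases after the gene's first base, and capitals mark the ETS core GGAA, or TTCC on the other strand, the motif that FLI1 and other ETS factors bind. The windows are chr13:106535613-106535912 on the minus strand for EFNB2, chr1:22710588-22710887 on the plus strand for EPHB2 and chr3:184561535-184561834 on the plus strand for EPHB3.
EFNB2: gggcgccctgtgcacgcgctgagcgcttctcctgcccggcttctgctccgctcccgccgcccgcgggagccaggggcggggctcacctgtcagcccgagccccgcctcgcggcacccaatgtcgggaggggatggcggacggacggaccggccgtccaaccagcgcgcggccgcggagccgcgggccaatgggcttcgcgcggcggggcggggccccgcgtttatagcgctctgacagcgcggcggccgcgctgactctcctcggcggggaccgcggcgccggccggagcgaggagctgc
EPHB2: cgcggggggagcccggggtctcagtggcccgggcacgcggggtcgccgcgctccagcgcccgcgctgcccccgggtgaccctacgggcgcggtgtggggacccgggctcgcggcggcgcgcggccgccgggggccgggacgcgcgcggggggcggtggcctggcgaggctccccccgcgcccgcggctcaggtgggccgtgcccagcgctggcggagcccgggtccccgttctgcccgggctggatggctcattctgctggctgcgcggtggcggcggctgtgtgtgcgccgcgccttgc
EPHB3: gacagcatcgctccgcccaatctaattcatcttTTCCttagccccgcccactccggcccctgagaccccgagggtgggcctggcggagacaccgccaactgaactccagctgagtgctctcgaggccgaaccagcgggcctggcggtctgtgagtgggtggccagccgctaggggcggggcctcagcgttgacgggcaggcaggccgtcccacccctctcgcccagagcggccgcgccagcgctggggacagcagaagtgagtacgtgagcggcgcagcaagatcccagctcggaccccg
EFNB2 and EPHB2 hold 0 cores and EPHB3 holds 1, with GC contents of 78.7%, 83% and 69.0% against a median of 58.0% over 27305 gene windows. A core was present in 95.6% of all windows, with a median of 3 a window, and in 88.1% of the windows of the 59 members matched by symbol, with a median of 2. The doubled core GGAAGGAA, which contains 2 single cores, was in 3.61% of all windows and in those of EFNA4, SLIT3 and UNC5A among the members.

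Of the EphA receptors, EPHA2, which binds ephrin-A1, was at 60.7 and 69.3 FPKM in RD-ES control and at 9.68 and 8.27 FPKM in SK-N-MC control, 7.24-fold higher in RD-ES (log2 difference -2.73, adjusted p = 0.000153, limma). EPHA3 was 5.72-fold higher in SK-N-MC, at 40.7 and 40.9 against 7.32 and 6.93 FPKM (log2 difference 2.36, adjusted p = 6.7e-06, limma). EPHA4, a receptor for ligands of both ephrin classes, was 2.45-fold higher in SK-N-MC, and EPHA7 and EPHA5 were 2.33-fold and 2.20-fold higher. EPHA5 shares 535 bases of exon with an antisense gene, EPHA5-AS1, and the kit keeps no strand, so its reads may be divided. EPHA5-AS1 ran from 0 to 22.4 FPKM over the libraries with a mean of 4.94, beside a mean of 1.24 for EPHA5. Among the ligands of class A, EFNA3 was 2.61-fold higher and EFNA1 1.57-fold lower in SK-N-MC, whereas EFNA4 and EFNA5 did not pass the threshold. EFNA3 and EFNA4 lie next to each other and share a readthrough gene, EFNA4-EFNA3, so that reads could be divided between them. The readthrough gene itself was listed at a mean of 0.0304 FPKM and at most 0.243 FPKM. EFNA1 had the highest mean level of the ephrin-A ligands over the 4 libraries of each line, while the level of its receptor EPHA2 was high in RD-ES and low in SK-N-MC.

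Of the 13 semaphorins tested, 5 were higher and 2 lower in SK-N-MC control. SEMA3C, a secreted ligand, was at 2.30 and 1.22 FPKM in RD-ES control and at 45.9 and 47.8 FPKM in SK-N-MC control, 26.6-fold higher (log2 difference 4.14, SE 0.225, adjusted p = 4.4e-05, limma). SEMA5B, a transmembrane semaphorin with thrombospondin repeats, was at 7.17 and 6.83 against 63.5 and 65.3 FPKM, 9.20-fold higher (log2 difference 3.03, adjusted p = 5.1e-06, limma). SEMA6A, which binds class A plexins, was 7.83-fold higher, although it shares 245 bases with an antisense gene, and SEMA6D and SEMA6B were 4.58-fold and 5.24-fold higher from control means of 0.725 and 0.262 FPKM in RD-ES. Lower in SK-N-MC were SEMA4C (1.77-fold) and SEMA4G (2.29-fold). SEMA4G shares 382 bases of exon with MRPL43, an opposite gene at a mean of 46.7 FPKM, and its call (adjusted p = 0.0301, limma) did not hold. RD-ES control replicate 2 was at 6.45 FPKM against 3.39 in replicate 1, and without it the log2 difference was -0.48 (adjusted p = 0.0768, limma). The call was also lost without any 1 of the SK-N-MC libraries, with adjusted p from 0.0618 to 0.114 (limma). On the receptor side PLXND1 was 4.37-fold higher in SK-N-MC, at 102.7 and 106 FPKM against 21.9 and 25.8 (log2 difference 2.09, adjusted p = 1.9e-05, limma), and PLXNB1, the receptor of SEMA4D, was 3.20-fold lower, at 5.93 and 9.11 FPKM against 23.8 and 24.4 (log2 difference -1.58, adjusted p = 0.000613, limma).

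Netrin and SLIT signalling genes were split as well. NTN4, a netrin of basement membranes, was at 11.1 and 13.4 FPKM in RD-ES control and at 0.112 and 0.140 FPKM in SK-N-MC control, 97.1-fold higher in RD-ES (log2 difference -3.55, adjusted p = 2.1e-05, limma). The netrin receptor UNC5B was 3.87-fold higher in SK-N-MC, at 18.2 and 19.1 FPKM against 4.84 and 4.79 FPKM (log2 difference 1.75, adjusted p = 6.2e-05, limma). UNC5D was listed at 0 in all 4 RD-ES libraries and was at 2.10 and 2.13 FPKM in SK-N-MC control (adjusted p = 0.000481, limma). NTN4 and UNC5D passed the filter through 1 line, so their p-values add no support for a difference. DCC was level between the lines in control cells, at 2.75 and 2.74 against 2.68 and 2.85 FPKM, with a log2 difference of 0.01 (95% interval -0.40 to 0.42). ROBO3, which acts when commissural axons cross the midline, was 4.56-fold higher in RD-ES control, at 12.8 and 15.2 FPKM against 2.36 and 3.78 (log2 difference -1.90, adjusted p = 0.000417, limma), whereas ROBO1 differed by 1.23-fold.

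**Figure D2:**
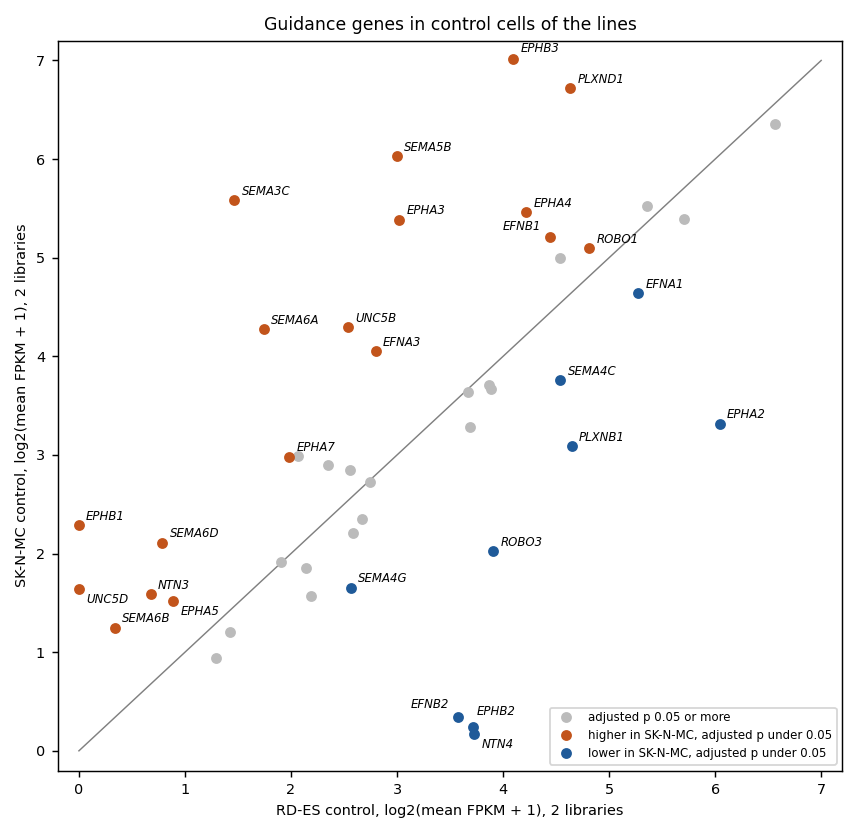
Mean level of the 46 tested members in RD-ES control (x axis) and SK-N-MC control (y axis), each a log2(mean FPKM + 1) of 2 libraries. The grey line marks equal levels, orange points are the 18 members higher in SK-N-MC, blue points are the 9 lower and grey points are members past no threshold. EFNB2, EPHB2 and NTN4 lie at the bottom, near 0 in SK-N-MC.

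No member passed the adjusted threshold between eKD2 and control cells. In RD-ES 0 of the 46 tested members had an adjusted p under 0.05 (limma), where 0.264% of all genes were called higher and 0.0791% lower. At an unadjusted p under 0.05, 5 members were higher (DCC, EFNA1, EPHB1, PLXND1 and ROBO1) and 4 lower (EFNA4, NTN1, NTN4 and SEMA5B). Those are 10.9% and 8.70% of the members, beside 8.49% and 3.79% of all genes. The median log2 difference was 0.05 over the 46 members and 0.03 over all 15175 genes. Both eKD2 libraries were above both controls for 16 members and below them for 11, where 24.2% and 15.1% of all genes were so placed. Leaving out RD-ES eKD2 replicate 1 leaves 1 library in that group, so the count without it is not read as a result about the members. The balance over all genes moved with the scaling of the libraries, since the share higher among genes with an unadjusted p below 0.05 was 69.1% as deposited and 41.2% after scaling to a common median. With 2 libraries a side the smallest two-sided p of an exact permutation test is 0.333, and the p-values given are from the limma fit.

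DCC, the netrin-1 receptor on chromosome 18 (GRCh37, 49866567 to 51062269, plus strand), had the smallest p among the members in RD-ES. The gene was at 2.75 and 2.74 FPKM in control and at 7.77 and 5.62 FPKM in eKD2, which is 2.44-fold. Both eKD2 values lay above both control values, with the eKD2 libraries apart from each other by more than the controls were. The log2 difference was 1.03 (SE 0.169, 95% interval 0.61 to 1.44, unadjusted p = 0.000866, adjusted p = 0.124, limma), and it was 0.82 (adjusted p = 0.256) without eKD2 replicate 1. Of the 3 netrin ligands tested, NTN1 and NTN4 had lower values in eKD2 and NTN3 did not. NTN1 was at 3.05 and 3.80 FPKM in control and at 2.07 and 2.36 FPKM in eKD2 (log2 difference -0.46, adjusted p = 0.299, limma). NTN4 was at 11.1 and 13.4 FPKM in control and at 7.91 and 9.56 FPKM in eKD2 (log2 difference -0.44, adjusted p = 0.337, limma). Values of the groups overlapped for neither gene, and for neither did the adjusted p pass the threshold. Without eKD2 replicate 1 the log2 differences were -0.39 for NTN1 and -0.32 for NTN4 (adjusted p = 0.483 and 0.557, limma), and the unadjusted p of 0.0556 and 0.103 were no longer under 0.05. NTN3 was at 0.688 and 0.507 FPKM in control and at 0.670 and 1.00 FPKM in eKD2, values that overlapped (log2 difference 0.20, adjusted p = 0.702, limma).

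PLXND1 was at 21.9 and 25.8 FPKM in RD-ES control and at 33.5 and 33.4 FPKM in eKD2, 1.40-fold (log2 difference 0.48, SE 0.0878, adjusted p = 0.153, limma). ROBO1, the receptor of SLIT2, was at 26.8 and 27.3 FPKM in control and at 36.2 and 33.2 FPKM in eKD2, 1.28-fold (log2 difference 0.35, adjusted p = 0.189, limma). Neither gene had overlapping groups. SLIT2 was at 13.4 and 9.99 FPKM in control and at 9.23 and 9.18 FPKM in eKD2 (log2 difference -0.30, 95% interval -0.65 to 0.04). EPHB1 was listed at 0 in both controls and was at 0.366 and 0.660 FPKM in eKD2 (log2 difference 0.59, adjusted p = 0.280, limma). These are low values, in eKD2 libraries where 1 read on a transcript of 3 kb is worth 0.044 and 0.023 FPKM. With a pseudocount of 0.1 the log2 difference of EPHB1 was 2.57 (adjusted p = 0.0731, limma). EFNA1 was 1.25-fold and EFNA4 0.854-fold of the control mean, and SEMA5B 0.847-fold (adjusted p 0.391, 0.395 and 0.360, limma). Without eKD2 replicate 1 the log2 differences were 0.48 for PLXND1, 0.29 for ROBO1, 0.73 for EPHB1, 0.41 for EFNA1, -0.24 for EFNA4 and -0.25 for SEMA5B, with adjusted p from 0.269 to 0.507 (limma). Of these 6 only EFNA4 then had an unadjusted p over 0.05 (0.0712).

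In SK-N-MC 0 of the 46 members had an adjusted p under 0.05 (limma), beside 0.152% of all genes higher and 0.171% lower. At an unadjusted p under 0.05, 4 members were higher (DCC, ROBO3, UNC5B and UNC5D) and 2 lower (EFNA1 and SEMA5B), which is 8.70% and 4.35% of the members beside 5.71% and 7.29% of all genes. That count of 6 was lower when either SK-N-MC control library was left out, which leaves 1 library in the group. The median log2 difference was 0.033 over the members and -0.0049 over all genes. Both eKD2 libraries lay above both controls for 15 members and below for 9, where 22.2% and 25.1% of all genes did.

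All 3 tested receptors of the DCC and UNC5 family were among the 4 higher members. DCC was at 2.68 and 2.85 FPKM in control and at 3.76 and 4.64 FPKM in eKD2, 1.52-fold (log2 difference 0.46, 95% interval 0.05 to 0.87, adjusted p = 0.343, limma). UNC5B was at 18.2 and 19.1 FPKM in control and at 22.0 and 25.2 FPKM in eKD2, 1.27-fold (log2 difference 0.32, adjusted p = 0.297, limma). UNC5D was at 2.10 and 2.13 FPKM in control and at 3.71 and 3.79 FPKM in eKD2, 1.77-fold (log2 difference 0.61, 95% interval 0.19 to 1.03, adjusted p = 0.249, limma). Control and eKD2 values did not overlap for any of the 3. The family's summed level was 24.5 and 25.7 FPKM in the controls against 30.8 and 35.04 in eKD2. This sum holds the same 3 genes in the same libraries, so it adds no support for a rise of the family. In RD-ES the family's sum was 7.69 and 7.82 FPKM in the controls against 12.1 and 10.6 in eKD2. There the mean of DCC went from 2.74 to 6.70 FPKM, while UNC5B was at 4.84 and 4.79 FPKM in control against 4.03 and 4.71 in eKD2 and UNC5D was at 0. UNC5A, which was below the filter and not tested, had lower values in SK-N-MC eKD2, at 1.25 and 1.41 FPKM against 1.57 and 1.67 FPKM in the controls (0.823-fold).

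EFNA1, a ligand of EPHA2, had the smallest p among the members in SK-N-MC in the main fit. It was at 21.9 and 25.9 FPKM in control and at 12.9 and 14.7 FPKM in eKD2, 0.578-fold, and both eKD2 values were under both controls. The log2 difference was -0.75 (SE 0.123, 95% interval -1.05 to -0.45, unadjusted p = 0.000852, adjusted p = 0.110, limma). Its receptor EPHA2 was at 9.68 and 8.27 FPKM in control and at 8.35 and 13.6 FPKM in eKD2, values that overlapped. ROBO3 was at 2.36 and 3.78 FPKM in control and at 5.80 and 5.36 FPKM in eKD2, 1.82-fold (log2 difference 0.71, 95% interval 0.24 to 1.18, adjusted p = 0.230, limma). The control libraries of ROBO3 lay apart, and without control replicate 1 the log2 difference was 0.46 (adjusted p = 0.471, limma). SEMA5B was at 63.5 and 65.3 FPKM in control and at 54.1 and 57.4 FPKM in eKD2, 0.866-fold (log2 difference -0.20, adjusted p = 0.343, limma).

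**Figure D3:**
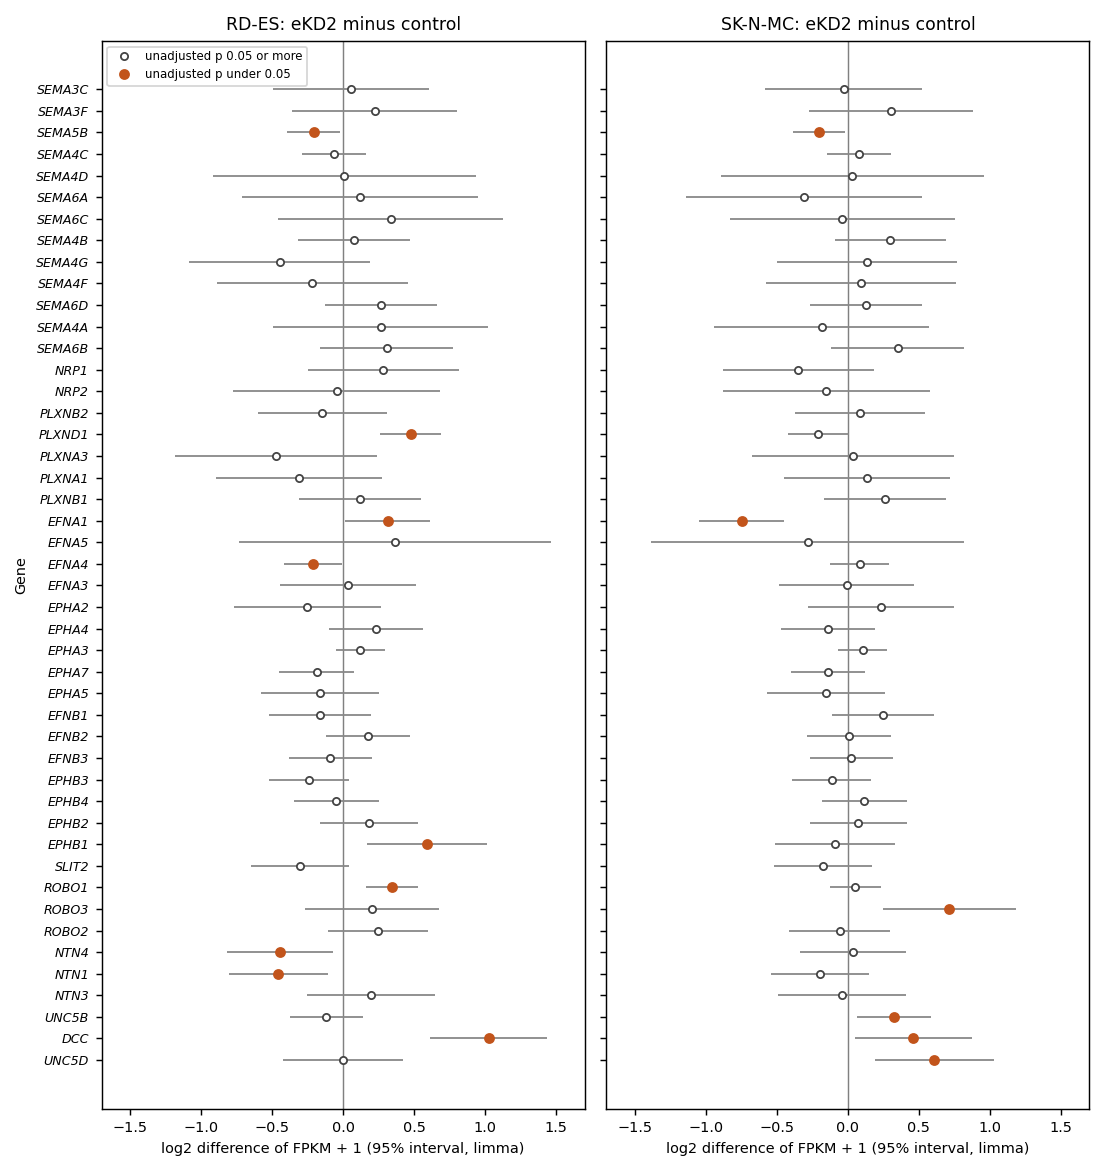
Log2 difference of FPKM + 1 between eKD2 and control for the 46 tested members, RD-ES on the left and SK-N-MC on the right, with 95% intervals from limma. Orange points have an unadjusted p under 0.05 (9 members on the left and 6 on the right), and most intervals include 0.

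Whether the response differed between the lines was tested as the difference of the eKD2 effects, which draws on the same 8 libraries as the comparisons above. No member had an adjusted p under 0.05 (0 of 46, limma, beside 0.105% of all genes with a higher effect in SK-N-MC and 0.138% with a lower one). At an unadjusted p under 0.05, 3 members had a higher effect in SK-N-MC (EFNA4, UNC5B and UNC5D) and 4 a lower one (EFNA1, EPHB1, PLXND1 and ROBO1), beside 4.38% and 9.16% of all genes. Over all genes 32.4% of those with an unadjusted p under 0.05 had the higher effect in SK-N-MC as deposited, and 56.3% after scaling to a common median. This count of 7 changed when either RD-ES eKD2 library was left out, which leaves 1 library in the group, so it is not read further. EFNA1 was higher in RD-ES eKD2 and lower in SK-N-MC eKD2, with a difference of effects of -1.06 on the log2 scale (95% interval -1.48 to -0.64, unadjusted p = 0.000838, adjusted p = 0.122, limma). PLXND1 had the same pattern, at 103 and 106 FPKM in SK-N-MC control and 88.2 and 92.0 FPKM in eKD2, with a difference of effects of -0.68 (95% interval -0.99 to -0.38, adjusted p = 0.152, limma). For DCC the effect was higher in both lines, and the difference of -0.56 (95% interval -1.15 to 0.02) did not pass the unadjusted threshold. This difference of DCC rested on the RD-ES eKD2 libraries, since it was -0.36 without replicate 1 (unadjusted p = 0.124, limma) and -0.77 without replicate 2 (unadjusted p = 0.0120, adjusted p = 0.189, limma). Without replicate 1 it was -1.16 for EFNA1 (adjusted p = 0.183, limma) and -0.68 for PLXND1 (adjusted p = 0.259, limma), and those of ROBO1, UNC5B and EFNA4 had unadjusted p of 0.0642, 0.0660 and 0.0632. SEMA5B was lower in both lines by nearly the same amount, with a difference of effects of 0.003 (95% interval -0.26 to 0.27).

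**Figure D4:**
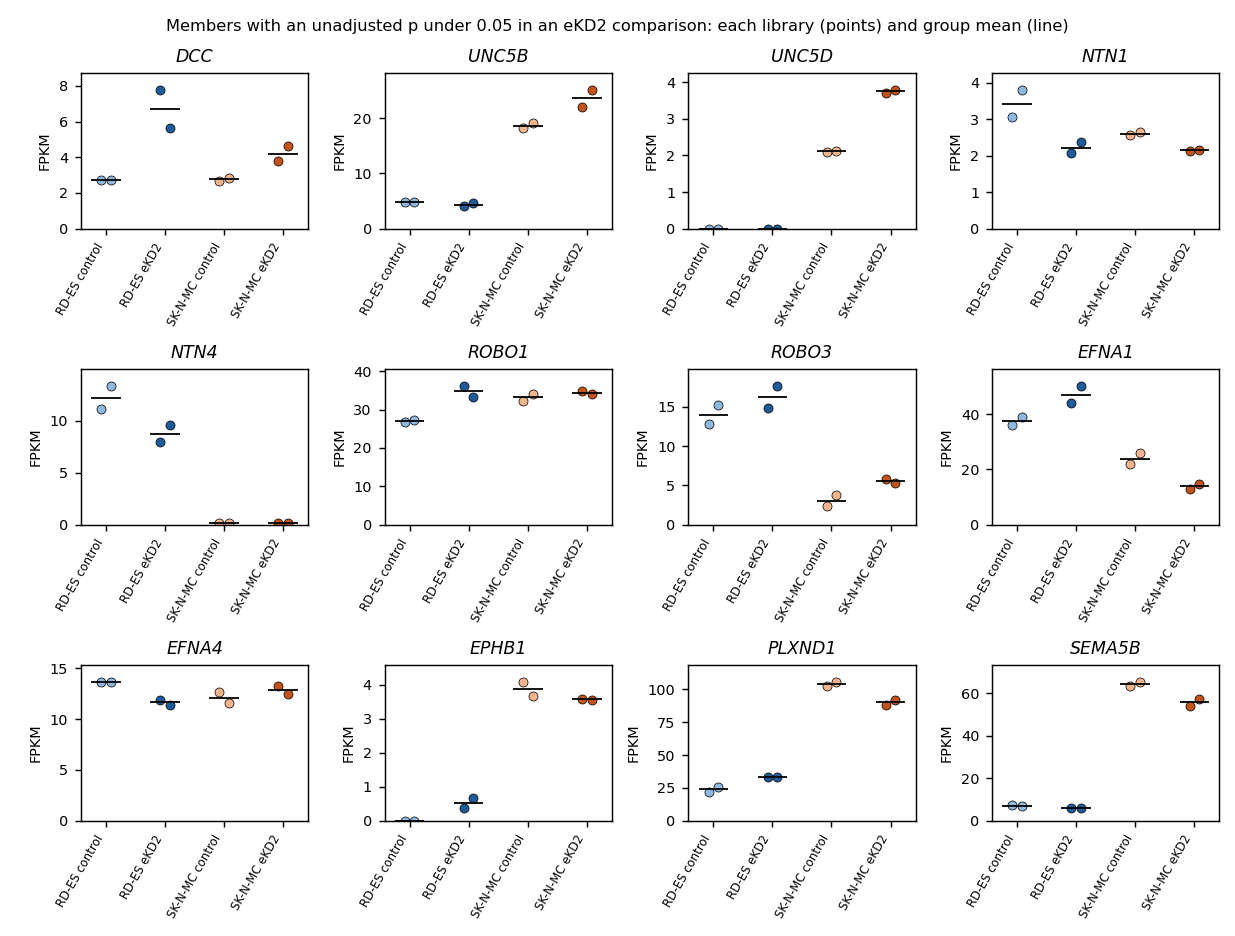
FPKM in each library for the 12 members with an unadjusted p under 0.05 in an eKD2 comparison of either line. Each point is 1 library, each line the mean of 2 libraries, and all y axes start at 0. EFNA1 moves apart in opposite directions in the lines, and UNC5D is at 0 in RD-ES.

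In some members 1 library of a pair lay far from the other. PLXNA3, a class A plexin, was at 50.8 and 51.6 FPKM in RD-ES control and at 29.3 and 45.7 FPKM in eKD2. Its log2 difference of -0.47 had a 95% interval of -1.18 to 0.24. The lower eKD2 value is that of the shallowest library. In SK-N-MC eKD2 PLXNA3 was at 32.3 and 54.6 FPKM, in libraries of 23.4 M and 24.8 M reads. The part of depth in these spreads was not tested. EFNA5, a ligand of EphA receptors, was at 10.2 and 13.3 FPKM in SK-N-MC control and at 5.38 and 15.8 FPKM in eKD2, and its log2 difference of -0.28 had a 95% interval of -1.38 to 0.81.

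Genes downstream of these receptors and other guidance cues were counted from 2 lists. Of 30 other guidance genes, 23 were tested, and of 55 genes of receptor signalling, 52 were tested. In neither line did either list hold a gene at an adjusted p under 0.05 (limma). The other guidance genes had 3 higher and 1 lower at an unadjusted p under 0.05 in RD-ES and 3 higher and 2 lower in SK-N-MC, with medians of 0.06 and 0.12 on the log2 scale. Over all genes 8.49% were higher and 3.79% lower in RD-ES, and 5.71% higher and 7.29% lower in SK-N-MC. NEO1, a relative of DCC and receptor of repulsive guidance molecules, was at 30.2 and 23.7 FPKM in SK-N-MC control and at 46.0 and 43.0 FPKM in eKD2 (log2 difference 0.71, adjusted p = 0.195, limma). RGMB, a ligand of NEO1, was at 4.82 and 5.36 FPKM in RD-ES control and at 7.50 and 6.53 FPKM in eKD2 (log2 difference 0.40, adjusted p = 0.247, limma). The signalling list had 6 higher and 1 lower in RD-ES and 2 higher and 5 lower in SK-N-MC, with medians of 0.024 and -0.014, to be read against the same shares of all genes. FYN, a kinase used by DCC and plexin signalling, was at 36.5 and 39.9 FPKM in RD-ES control and at 48.3 and 49.6 FPKM in eKD2, and at 194 and 200.7 FPKM in SK-N-MC control and 225 and 249.7 FPKM in eKD2. The log2 differences were 0.35 and 0.26 with adjusted p of 0.203 and 0.265 (limma). ITSN1, an exchange factor for CDC42 that works with EphB receptors, was at 34.9 and 35.2 FPKM in RD-ES control against 57.1 and 51.8 FPKM in eKD2, and at 46.2 and 38.3 FPKM in SK-N-MC control against 31.0 and 31.6 FPKM in eKD2. Its difference of effects was -1.03 on the log2 scale (adjusted p = 0.0907, limma). ARHGEF11, a RhoA exchange factor coupled to plexin-B, was at 21.7 and 18.7 FPKM in RD-ES control against 11.8 and 12.2 FPKM in eKD2 (log2 difference -0.70, adjusted p = 0.135, limma).

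Both lists were also compared between the lines. In control cells 15 of the 23 other guidance genes were higher in SK-N-MC and 4 lower at an adjusted p under 0.05 (limma). Of the 52 signalling genes 19 were higher and 21 lower, where 31.4% of all genes were higher and 26.4% lower. Genes that passed the filter through 1 line were not set apart here, and the filter favours a difference between lines in such genes. L1CAM, a co-receptor of SEMA3A with neuropilin-1, was at 2.61 and 2.87 FPKM in RD-ES control and at 17.5 and 19.3 FPKM in SK-N-MC control (log2 difference 2.37, adjusted p = 2.4e-05, limma). TIAM1, a RAC exchange factor that Eph receptors and ephrin-B ligands can recruit, was at 11.5 and 10.1 FPKM in RD-ES control and at 0 and 0.103 FPKM in SK-N-MC control (log2 difference -3.49, adjusted p = 1.9e-05, limma). TIAM1 passed the filter through RD-ES alone, so that p adds no support for a difference. NGEF, also called ephexin, an exchange factor that binds EphA4, was at 1.21 and 1.64 FPKM in RD-ES control and at 20.8 and 19.1 FPKM in SK-N-MC control (log2 difference 3.12, adjusted p = 1.5e-05, limma).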

How the data were processed

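RNA-seq was done on RD-ES and SK-N-MC cells, control or eKD2, with 2 libraries in each of 4 groups (poly-A selected, unstranded libraries, single-end reads of 75 bases). Per the study's methods, the authors aligned reads to GRCh37 with STAR and assembled transcripts with cufflinks, and cuffnorm gave the deposited FPKM values of 60332 genes. The submitters' processing notes also name FastQC and DESeq2. The counts behind the DESeq2 test of the study were not used here.

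FPKM were compared as log2(FPKM + 1) with limma 3.58.1 (lmFit, eBayes with trend) in R 4.3.3, for the 15175 genes that averaged 1 FPKM or more, in 1 fit of 4 groups with Benjamini-Hochberg adjustment over all 15175. Such fold changes understate the change of low genes. The fit was tested on simulated data, where it missed part of the changes put in, so a member not called may still have changed. Folds in FPKM are ratios of group means. The depth of each library was estimated from the steps that whole reads leave in low values, where 88.7% to 91.1% of the values used lay within 0.1 of a whole read, so it is rough and holds any scaling by cuffnorm. Exon overlaps and gene positions come from GENCODE 44 lifted to GRCh37, not the release the authors used, and promoter windows from RefSeq. All 69 members were found in the table.

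Members and gene lists were chosen with earlier results of these data known. Named genes are the members with an unadjusted p under 0.05 in an eKD2 comparison, up to 12 in each direction by size among those called between lines, the 12 of highest mean level, the leading member of each family in each line, and up to 4 genes of each list by smallest p. SEMA3A, SEMA6B, UNC5A, EPHA5, EPHA7, EPHA8, EFNA5, EFNB3, NRP2, NTN3, PLXNA2, ROBO4 and SLIT3 were named beyond this rule, after their values were seen. Alternatives were a pseudocount of 0.1, no filter, median scaling, quantile normalization, a replicate block, fits on 4 libraries alone and leaving out each library. PECAM1, an endothelial marker, was not analysed here. The other endothelial markers, CDH5, VWF and TEK, summed to 0.150 to 0.611 FPKM. Another marker list is not reported here. Neuronal markers summed to 9.17 to 13.2 FPKM in RD-ES and 22.0 to 26.5 FPKM in SK-N-MC, with RBFOX3 at or under 0.170 FPKM. Epithelial markers summed to 38.6 to 60.5 FPKM, of which KRT18 was 35.2 to 54.4 FPKM.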

Additional observations from a re-analysis of the deposited data

How the results depend on the processing

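The number of members past the adjusted threshold in the eKD2 comparisons and in their difference was 0 under every alternative run, and the number called between the lines stayed within 1.5 times of 27. At an unadjusted p, leaving out 1 library at a time gave 3 to 6 members in SK-N-MC, where 6 were counted with all libraries. NTN4 in SK-N-MC, where it is near 0, had a log2 difference between eKD2 and control of -0.0698 after quantile normalization against 0.0356 as deposited. The difference of effects of SEMA5B, at 0.003, changed sign when single libraries were left out, with a range of -0.0392 to 0.0452. The cause was not tested. SEMA4G lost its call between control cells under 7 alternatives, with adjusted p up to 0.114. Over all genes, the 52 called in RD-ES became 1 with the line fitted alone, 79 without a filter and 27 to 71 without 1 library. The 49 called in SK-N-MC became 13, 118 and 12 to 76, and the 37 called for the difference became 66 without a filter and 54 to 81 without 1 library. Libraries of the same number did not deviate together (the correlation was 0.056 for RD-ES and 0.0274 for SK-N-MC), so the numbers were not taken to pair them. With a replicate block there were 0 members past the adjusted threshold in each eKD2 comparison, 10 members (RD-ES) and 7 (SK-N-MC) at an unadjusted p under 0.05, 4 in place of 7 for the difference, and 11, 5 and 7 genes over the whole table past the adjusted threshold. With 2 libraries a group, depth of 7.52 M reads in RD-ES eKD2 replicate 1 limits what can be read from low genes.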
